A study of Drosophila melanogaster with 2 samples.

Results

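The fly genes Tep1, Tep2, Tep3, Tep4 and Mcr encode the thioester-containing proteins and their close relative Macroglobulin complement-related. They were chosen by symbol, and all 5 were found by identifier among the 17612 genes counted in both sets of cells. Thioester-containing proteins are secreted relatives of vertebrate complement C3 and alpha-2-macroglobulin. In the active members an internal thioester bond can link the protein covalently to a microbial surface, which marks the microbe for uptake by macrophages. In Drosophila they are made by hemocytes, the blood cells of the larva, and by the fat body, the insect counterpart of the liver. Plasmatocytes are the macrophage-like hemocytes, crystal cells carry prophenoloxidases for melanisation, and lamellocytes are large adhesive cells that appear after wasp attack or in tumorous larvae.

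Single hemocytes were sequenced with Smart-seq2, which copies whole transcripts and gives the reads no molecular identifiers. Circulating hemocytes came from w1118 larvae without a tumor, from Ras larvae (UAS-RasV12) and from P35;Ras larvae, which carried RasV12 together with p35, an inhibitor of effector caspases. Values for the 3 circulating genotypes are given below in this order. Attached hemocytes were picked by hand from the salivary glands (SGs) of Ras and P35;Ras larvae. Attached values are given with Ras first. The transgenes were driven by BeadexMS1096-Gal4 in the SGs, where the tumor forms, and whether the driver is active in hemocytes was not examined. The GEO title of the circulating set names w1118 with BeadexMS1096-Gal4, and that of the attached set names UAS-RasV12. Each set held several genotypes, and those used here are from the deposited annotation of single cells, whose label w1118 does not name the driver. The cells had been selected for the plasmatocyte marker eater by an EaterDsRed reporter, so eater itself is no finding. Larval age for these libraries was not given in the sources used here. The question was how hemocytes of tumor larvae differ from those of control larvae, how attached cells differ from circulating cells, and what inhibition of effector caspases changes.

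After a filter on mitochondrial reads and genes, 125 circulating w1118, 126 circulating Ras, 124 circulating P35;Ras, 40 attached Ras and 19 attached P35;Ras cells were left. Circulating cells of a genotype were bled together from 10 larvae. Attached cells were picked from 10 gland pairs per genotype, and the annotation does not give the larva or gland a cell came from, so each group counts as 1 sample and no difference below carries a test. The intervals given are 95% intervals, of counting error for levels and ratios and of the draw of cells within 1 sample for shares. They do not cover the spread between samples. PCR copies, and mates of a pair in the attached set, are not independent molecules, so the intervals of levels and ratios are also too narrow.

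Median depth was 582056 to 637375 reads per cell in the circulating groups and 11146500 and 11295100 in the attached groups. The circulating genotypes lay side by side on 1 plate (columns 1 to 8, 9 to 16 and 17 to 24), so plate position and genotype cannot be told apart. The GEO labels name salivary gland as the tissue of both sets. In the circulating groups, however, the 10 SG markers summed to 0.063 to 0.49 CPM (counts per 1000000 reads of the group), 9, 5 and 6 of them had 0 reads, and the 8 plasmatocyte markers summed to 16856 to 31683 CPM. In the attached groups the plasmatocyte markers summed to 10688 and 11057 CPM, beside 32112 and 21113 CPM of SG markers and 24078 and 47019 CPM of fat body markers. Crystal cell markers reached 15918 CPM in attached P35;Ras against 511 CPM in attached Ras. No well name was shared by the sets and no 2 wells held identical counts. However, 2 attached P35;Ras wells correlated at r = 0.995 over log2(CPM + 1), against 0.923 for the next pair, and the levels and ratios of the members in that group are given below also without 1 of them.

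All 5 genes lie on chromosome arm 2L of Dm6 and are protein-coding. Tep2 (FBgn0041182, 7693727 to 7701601, minus strand, 5 transcripts of 8 exons) and Tep3 (FBgn0041181, 7702805 to 7710690, plus strand, 15 exons) are neighbours that start back to back, with 1203 bases between them. Mcr (FBgn0267488, 8074117 to 8082982, minus strand, 7 exons) lies on the same arm, 363426 bases beyond Tep3. Tep1 (FBgn0041183, 15888640 to 15893811, minus strand, 9 exons) and Tep4 (FBgn0041180, 19548507 to 19556451, plus strand, 4 transcripts) lie apart from these. Counting used no strand. The genes that overlap Tep3 and Mcr on the other strand had 0 reads, CG43235 at the end of Tep2 had 13 circulating and 373 attached reads, and none was annotated over Tep1 or Tep4. At default settings a read that overlaps 2 genes is counted for neither, so reads lost in the overlaps are not seen in these counts.

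Tep1, Tep4 and Mcr were read in most hemocytes, Tep2 in few circulating cells and Tep3 in nearly none. Per kilobase of exon, so that genes can be compared, the level in circulating w1118 was 53.5 CPM for Tep1, 34.0 for Tep4, 20.0 for Mcr and 1.51 for Tep2. By summed reads the order Tep1, Tep4, Mcr, Tep2, Tep3 was the same in each of the 5 groups and also per kilobase of the longest coding sequence. By medians over cells Tep4 lay above Tep1 in circulating w1118 (28.2 and 21.3 CPM per kilobase) and slightly in attached Ras (23.0 and 21.9), and Mcr above Tep4 in attached P35;Ras (4.98 and 4.64). In that last group Mcr and Tep2 lay close by summed reads, at 7.77 and 6.76 CPM per kilobase, and with no filter on cells Tep2 passed Mcr (8.72 and 7.28). Summed over the 5 genes, the level was 526, 802 and 731 CPM in the circulating and 607 and 358 CPM in the attached groups (390.1 CPM for the latter without 1 of the near-identical wells). Tep1 made up 42.9% of this sum in circulating w1118 and 70.1% in circulating Ras.

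Circulating cells that had a read of Tep1, Tep4 and Mcr together made up 52.8%, 55.6% and 50.8% of the genotypes. The product of the 3 single shares would give 53.6%, 57.6% and 52.3%. Within a circulating genotype the rank correlation between any 2 of Tep1, Tep2, Tep4 and Mcr over 124 to 126 cells lay between -0.19 and 0.27, and the share of cells with all 3 was not above what the single shares give.

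**Figure D1:**
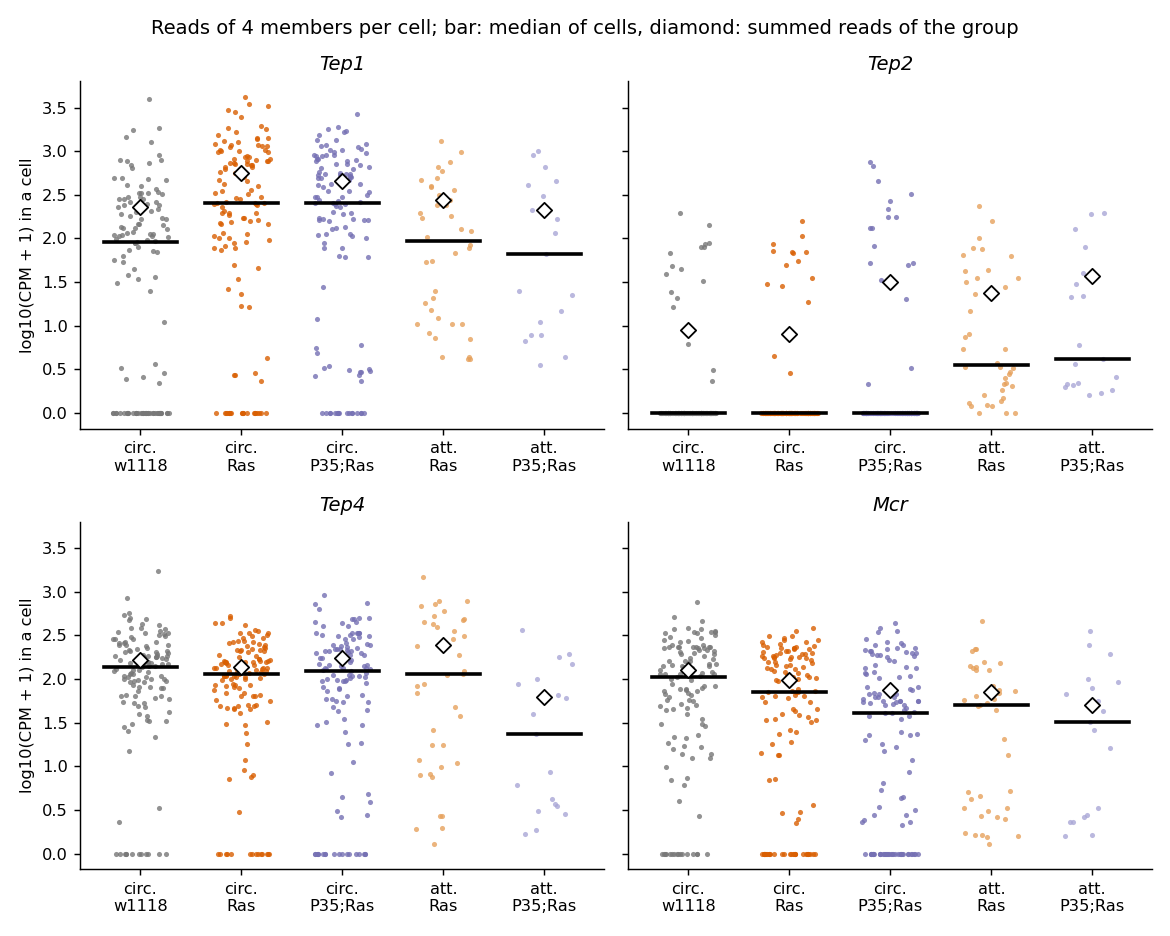
Each dot is 1 cell, with log10(CPM + 1) on the y axis, for Tep1, Tep2, Tep4 and Mcr in the 5 groups (circ., circulating; att., attached). Bars are medians over cells and diamonds the reads summed over the group. Tep2 has a median of 0 in the circulating groups, with a few P35;Ras cells up to 742 CPM, and the attached cells spread over about the whole range for each gene.

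Tep1, whose transcription in flies is linked to JAK/STAT signalling and rises on immune challenge, was the member with the largest difference between circulating Ras and w1118 cells. Its level was 225.8 CPM (222.5 to 229.1) in w1118, 562.3 (556.9 to 567.7) in Ras and 455.1 (450.4 to 459.9) in P35;Ras. Single w1118 cells ranged from 0 to 3995 CPM with a median of 89.8, Ras cells from 0 to 4191 with a median of 253.6, and P35;Ras cells from 0 to 2649 with a median of 255.2. The genotypes overlapped over the whole range of cells, and the medians of both tumor genotypes were close to each other and above that of w1118. Cells with over 1000 CPM of Tep1 numbered 5 of 125 in w1118, 25 of 126 in Ras and 15 of 124 in P35;Ras. In w1118 the 5 cells with most Tep1 held 37.6% of its reads, against 24.3% in Ras and 20.6% in P35;Ras.

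More circulating cells of tumor larvae also had a Tep1 read at all. The share was 68.0% in w1118 (59.1 to 76.1, Clopper-Pearson), 84.1% in Ras (76.6 to 90.0) and 86.3% in P35;Ras (79.0 to 91.8). With each cell thinned to 420000 reads, which left 110 to 113 cells a genotype, the share averaged over all draws was 64.3%, 82.4% and 85.7%, in the same order. The log2 ratio of Tep1 was 1.32 (1.29 to 1.34) for Ras over w1118, 2.49-fold, and it stayed between 1.21 and 1.50 under the alternative settings that give a log2 ratio. For P35;Ras over w1118 it was 1.01 (0.99 to 1.04), 2.02-fold. This second value lay at the 2-fold limit and fell below it with the mean over cells in place of summed reads (0.94), with TMM factors (0.80), with the stricter cell filter (0.97) and without the 5 atilla-rich cells described below (0.96). Both ratios use the same w1118 cells. The stricter filter kept cells with at most 5% mitochondrial reads and 200 to 4000 genes. Its upper limit lies below the median of 4573 to 4591 genes per cell in the circulating groups, so it kept few cells. P35;Ras over Ras gave -0.31 by summed reads and 0.01 by medians.

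At a level of at least 50 CPM in the higher group, 3 members could be called in circulating Ras over w1118 and 1 of them, Tep1, was past 2-fold, beside 6.92% of 3310 genes. At 10 CPM it was again 1 of 3, beside 9.18% of 6089 genes. In P35;Ras over w1118, 1 of 3 was past 2-fold at 50 CPM, beside 17.8% of genes, and 2 of 4 (Tep1 and Tep2) at 10 CPM, beside 19% of genes. In P35;Ras over Ras, 0 of 3 were past 2-fold at 50 CPM, beside 4.97% of genes, and 1 of 4 (Tep2) at 10 CPM, beside 6.22%. With 3 or 4 genes, shares of members cannot be told from these shares of all genes. The median log2 ratio over the genes tested at 50 CPM was 0.05, 0.11 and 0.04 in the 3 comparisons.

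**Figure D2:**
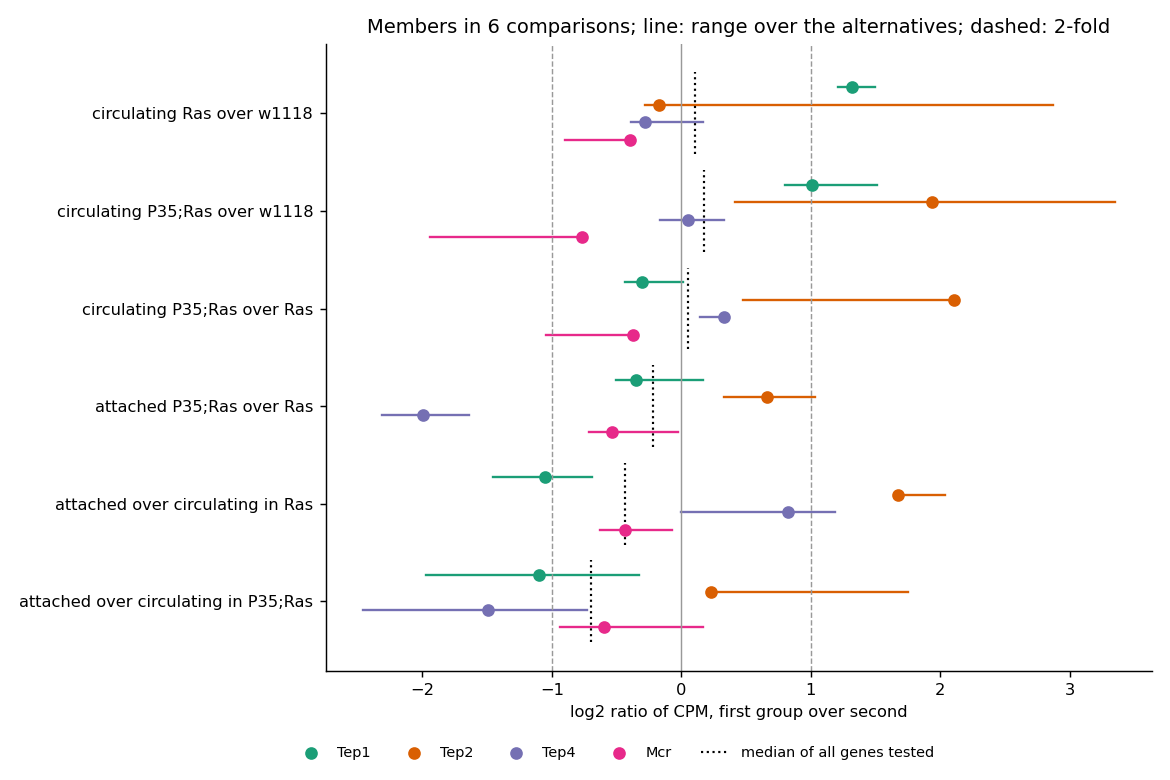
Log2 ratio of CPM (x axis) of 4 members in the 6 comparisons (y axis). Dots are ratios of summed reads, lines the lowest and highest value over the alternative settings on the same scale, dashed lines 2-fold and dotted lines the median of all genes with at least 10 CPM. Tep1 in circulating Ras over w1118 and Tep4 in attached P35;Ras over Ras stay past 2-fold under each setting drawn, whereas the line of Tep2 in circulating P35;Ras over w1118 runs from 0.41 to 3.35.

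Mcr lacks the thioester cysteine, takes part in uptake of Candida by cultured fly cells and is a component of epithelial septate junctions. It had its highest level in circulating w1118, at 126.2 CPM (123.7 to 128.7), with 95.9 (93.7 to 98.2) in Ras and 74.1 (72.2 to 76.0) in P35;Ras. Medians over cells were 105.3, 70.8 and 39.7 CPM, and cells ranged from 0 to 765 in w1118, 0 to 384 in Ras and 0 to 438 in P35;Ras. By sums and by medians the level stepped down over the 3 genotypes, with full overlap of the cells. The share of cells with a read was 87.2% (80.0 to 92.5), 77.0% (68.6 to 84.0) and 71.0% (62.1 to 78.8), and 86.9%, 74.9% and 68.2% after thinning. These intervals cover the draw of cells from 1 sample, so their overlap or gap is no test between genotypes. The log2 ratio over w1118 was -0.40 (-0.44 to -0.35) for Ras and -0.77 (-0.82 to -0.72) for P35;Ras, neither past 2-fold. Under the stricter cell filter, which left 6, 12 and 17 cells, these values were -0.90 and -1.94. By medians over cells they were -0.57 and -1.41, the latter past 2-fold.

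Tep4, which marks prohemocytes of the lymph gland, differed least between the circulating genotypes. It stood at 166.0 CPM (163.2 to 168.9) in w1118, 136.5 (133.9 to 139.2) in Ras and 171.5 (168.6 to 174.5) in P35;Ras. Medians over cells were 137.7, 112.7 and 124.3 CPM, with ranges of 0 to 1717, 0 to 529 and 0 to 915. A read was found in 90.4%, 88.9% and 85.5% of cells. The log2 ratios of -0.28 and 0.05 of the tumor genotypes over w1118 each changed sign under at least 1 alternative. The w1118 cell at 1717 CPM stood apart: it had only 1810 genes with a read, it was also the highest w1118 cell for Mcr (765 CPM), and it had 2.27 CPM of Tep1.

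Tep2, which in flies is spliced into several forms and takes part in uptake of bacteria by cultured cells, was rare in circulating cells. A read was found in 17 of 125 w1118 cells (13.6%, 8.1 to 20.9), 15 of 126 Ras cells (11.9%, 6.8 to 18.9) and 18 of 124 P35;Ras cells (14.5%, 8.8 to 22.0). The shares were close to each other. The levels were 7.97 CPM (7.36 to 8.61), 7.09 (6.49 to 7.72) and 30.5 (29.3 to 31.8), so P35;Ras had 3.83-fold the level of w1118 (log2 ratio 1.94) and 4.31-fold that of Ras (2.11) from about the same share of cells. The log2 ratio of Ras over w1118 was -0.17, and 2.87 under the stricter filter, which also took P35;Ras over Ras to 0.47.

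Most Tep2 reads of circulating P35;Ras came from 5 cells with over 1000 CPM of atilla, the gene of a lamellocyte surface antigen. This limit was set after the values had been seen. No w1118 or Ras cell was above it, and the 5 cells had 2865 to 8386 CPM of atilla. In the order of their atilla level they had 449, 742, 216, 667 and 271 CPM of Tep2, and together they held 66.8% of the Tep2 reads of the group. Among the other 119 P35;Ras cells 13 had a Tep2 read, 1 of them above 200 CPM, at 322 CPM, and the highest w1118 or Ras cell had 195.1 CPM. Without the 5 cells the group had 10.6 CPM of Tep2, and the log2 ratio fell from 1.94 to 0.41 over w1118 and from 2.11 to 0.58 over Ras. This removal was one-sided, since no w1118 or Ras cell was above the limit. The 5 cells with most Tep2 held 69.1% of its reads in w1118 and 61.7% in Ras, against 69.4% in P35;Ras. Reads of this rare gene thus came mostly from few cells in each circulating genotype. The same 5 cells had 1338, 662, 533, 1174 and 248 CPM of Tep1. They held 7.53% of the Tep1, 9.66% of the Tep4 and 12.2% of the Mcr reads of the group, a smaller share than of Tep2. These genes were higher in the 5 cells as well. Summed levels in the 5 and in the other 119 cells were 789 and 440 CPM for Tep1, 382 and 162 for Tep4 and 209 and 68.0 for Mcr. All circulating cells had been sorted for eater, and lamellocyte markers summed to 496, 428 and 1226 CPM. atilla is 1 of the 5 genes summed, and the part of lamellocyte RNA in these levels was not tested.

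**Figure D3:**
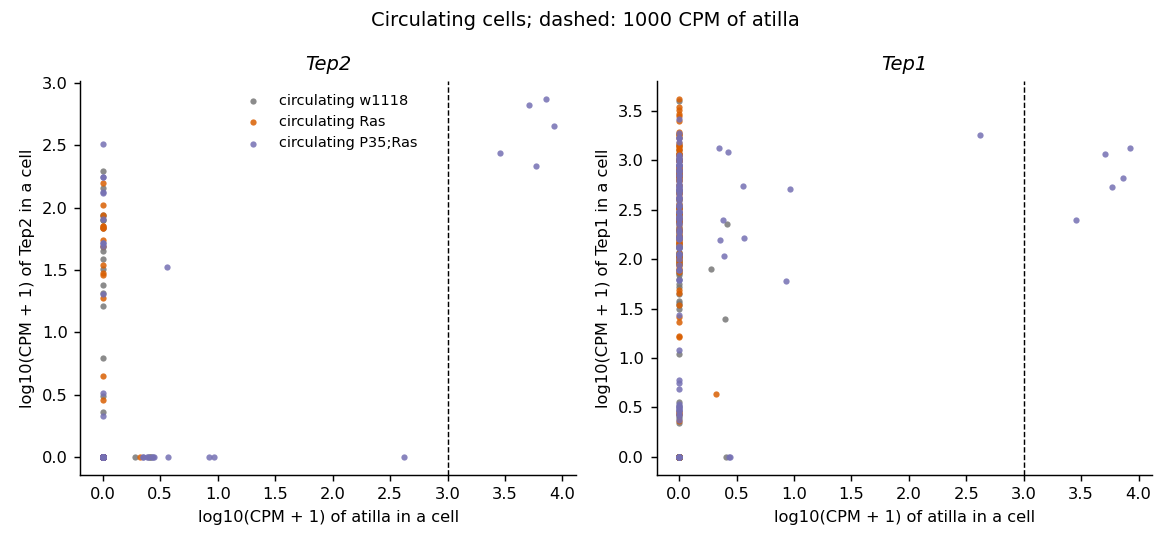
Each dot is a circulating cell, with log10(CPM + 1) of atilla on the x axis and of Tep2 (left) or Tep1 (right) on the y axis. Colours are genotypes and the dashed line is 1000 CPM of atilla. The 5 cells right of the line are all P35;Ras and all have a Tep2 read, while their Tep1 lies within the range of the other cells. Their summed level of Tep1 is 789 CPM, against 440 in the other P35;Ras cells.

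Tep3, which takes part in uptake of bacteria by cultured fly cells, was nearly undetected. It had 0 reads in circulating w1118 and Ras, for which the upper 95% limits were 0.046 and 0.050 CPM and 2.91% and 2.89% of cells with a read. In circulating P35;Ras 8 reads came from 1 cell, so reads of a cell do not count as separate events, and the limits on CPM are too low. Attached Ras had 6 reads from 1 cell and attached P35;Ras 1 read, so no fold is given for this gene.

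The deposited annotation puts circulating cells in 5 clusters, numbered 0 to 4. These were made from the genes of the same cells, so the levels by cluster are a description. The genotypes fill them unequally: cluster 0 held 8, 57 and 93 cells of the 3 genotypes, cluster 1 held 52, 32 and 0, cluster 2 held 3, 20 and 29, cluster 3 held 42, 1 and 0, and cluster 4 held 20, 16 and 2. Over all genotypes Tep1 was highest in cluster 0 (580 CPM) and lowest in cluster 1 (178 CPM), whereas Mcr was highest in cluster 1 (157 CPM) and lowest in cluster 2 (68.0 CPM). Tep1 and Mcr thus stood in opposite order in the clusters that hold most tumor and most w1118 cells. Tep4 ranged from 121 to 169 CPM and Tep2 from 3.01 to 24.8 CPM.

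Within cluster 1, Tep1 was lower in Ras (120 CPM, 32 cells) than in w1118 (214 CPM, 52 cells), and medians were 74.5 and 99.0 CPM. Within cluster 4 it was higher in Ras (883 CPM, 16 cells) than in w1118 (106 CPM, 20 cells), and in cluster 0 it was 563 CPM in 8 w1118 cells, 755 in Ras and 480 in the other tumor genotype, with medians of 110.1, 569 and 252.5 CPM. In cluster 2, with only 3 w1118 cells, it was 57.3, 451 and 348 CPM. Tep1 was thus higher in Ras than in w1118 in clusters 0, 2 and 4 and not in cluster 1. Mcr was nearly level between genotypes inside cluster 1 (155 CPM in w1118 and 162 in Ras), and in cluster 0 w1118 was lowest (46.8 CPM against 79.7 and 75.7). In cluster 4 w1118 was above Ras (88.8 and 63.1 CPM). In cluster 2 the levels were 106 CPM in 3 w1118 cells, 60.6 and 69.2. The order of Mcr over all cells was thus not seen inside clusters 0 and 1, whereas w1118 was highest in clusters 2 and 4.

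**Figure D4:**
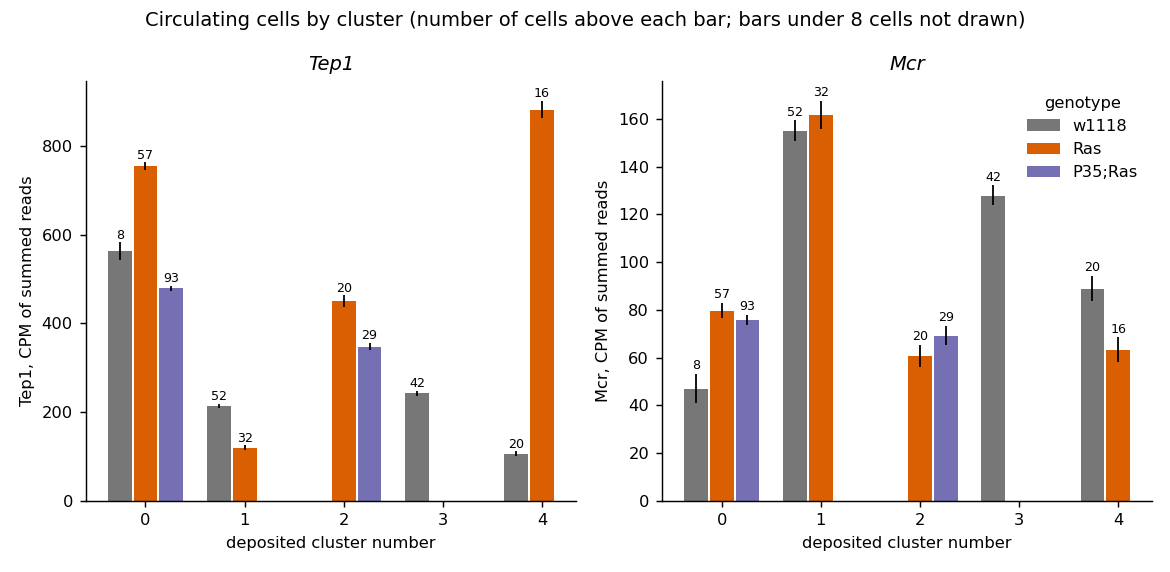
CPM of summed reads of Tep1 (left) and Mcr (right) in circulating cells by deposited cluster and genotype, with 95% counting intervals and the number of cells above each bar. Genotypes with under 8 cells in a cluster are not drawn. Ras exceeds w1118 for Tep1 in clusters 0 and 4 and lies below it in cluster 1, and Mcr is about equal in the 2 genotypes of cluster 1.

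Attached cells were read far more deeply, and a read of Tep1, Tep4 and Mcr was found in each of them. Thinned to 420000 reads, the shares were 96.8% and 95.3% for Tep1, 91.3% and 80.2% for Tep4 and 79.1% and 76.2% for Mcr. Tep2 was read in 61.9% and 65.8% of thinned attached cells against 12.1% to 15.4% of thinned circulating cells. Without 1 of the near-identical wells the P35;Ras shares of Tep4, Mcr and Tep2 were 83.2%, 79.6% and 68.4%. Each mate of a pair was counted in the attached set, so the thinned cells match in reads and not in fragments. In most of these cells Tep2 was low all the same, with medians of 2.53 and 3.18 CPM. Each attached cell also held fat body markers, at 1272 CPM or more in Ras and 2181 or more in P35;Ras. The part of fat body RNA in the Tep2 reads was not tested.

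Tep4 was the member that separated the attached genotypes. It stood at 242.2 CPM (240.9 to 243.5) in Ras and 60.8 (59.8 to 61.8) in P35;Ras. Cells ranged from 0.27 to 1483 CPM with a median of 112.3 in Ras and from 0.66 to 363 with a median of 22.7 in P35;Ras. The groups overlapped, and 21 of 40 Ras against 4 of 19 P35;Ras cells were above 100 CPM. The log2 ratio of P35;Ras over Ras was -1.99 (-2.02 to -1.97), 3.98-fold lower. It was -1.86 without 1 of the 2 near-identical wells, both of which were below 1 CPM, -1.80 without the 4 P35;Ras cells with over 10000 CPM of crystal cell markers, and -1.98 with totals that leave out SG and fat body markers. The level was lower in P35;Ras in both deposited clusters of attached cells: in cluster 0 it was 56.9 CPM in 16 and 26.1 in 11 cells, and in cluster 1 it was 369 CPM in 24 and 125 in 8 cells. Without 1 of the near-identical wells the P35;Ras median over cells was 30.6 CPM and the cluster 0 level 30.0 CPM.

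The other members differed by under 2-fold between the attached genotypes. Tep1 was 271.4 CPM in Ras (cells 3.11 to 1302, median 92.5) and 212.8 CPM in P35;Ras (2.50 to 999, median 65.0), and its log2 ratio of -0.35 turned to 0.17 without the crystal-marker-rich cells. Mcr was 71.0 CPM (0.27 to 464, median 49.2) and 48.9 CPM (0.58 to 360, median 31.4), a log2 ratio of -0.54 that shrank to -0.07 without those cells. Tep2 was 22.6 CPM (0 to 235) and 35.8 CPM (0.62 to 193), a log2 ratio of 0.66 that reached 1.03, past 2-fold, with no filter on cells. Without 1 of the near-identical wells the ratios of Tep1, Mcr and Tep2 were -0.23, -0.41 and 0.79, and the P35;Ras medians 89.0, 36.5 and 4.10 CPM. For all 3 genes the cells of both genotypes covered nearly the same range. Of the 3 members at 50 CPM or more, 1 was past 2-fold, beside 37.9% of 3337 genes, and of the 4 at 10 CPM or more again 1, beside 43% of genes. Single cells weighed heavily: the top cell held 27.7% of the Tep4 and 26.5% of the Tep1 reads of attached P35;Ras. The top 5 cells of each gene held 92.8% of the Tep2, 87.8% of the Tep1, 85.5% of the Tep4 and 72.5% of the Mcr reads of that group.

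Attached cells also differed widely among themselves within a genotype. Ras medians in attached cluster 0 (16 cells) were 15.5 CPM for Tep1, 8.06 for Tep4 and 2.20 for Mcr, and in cluster 1 (24 cells) 174.5, 335.2 and 78.1. P35;Ras medians, with both near-identical wells, were 21.3, 3.18 and 2.33 CPM in cluster 0 (11 cells) and 138.5, 75.7 and 71.9 in cluster 1 (8 cells). The attached clusters, too, were made from the genes of the same cells, so these values are a description. In Ras, the 27 cells with at least 5000 CPM of plasmatocyte markers had medians of 194.6 CPM of Tep1, 314.9 of Tep4 and 56.8 of Mcr, and the 13 cells below had 11.3, 16.4 and 4.11. All 3 medians were thus lower in the cells poor in plasmatocyte markers. In P35;Ras the same split gave medians of 212.1 and 14.0 CPM for Tep1 (13 and 6 cells) and 65.3 and 12.6 for Tep4. Tep2 was not lower in those cells, with 2.29 and 2.68 CPM in Ras and 3.18 and 11.7 in P35;Ras. Both near-identical wells were among the 6 P35;Ras cells below the limit, and without 1 of them the medians of the 5 left were 6.77 CPM for Tep1, 22.7 for Tep4 and 20.8 for Tep2.

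Over the 40 attached Ras cells the rank correlation with plasmatocyte markers was 0.54 for Tep1, 0.64 for Tep4 and 0.45 for Mcr, with fat body markers -0.32, -0.58 and -0.46, and with SG markers -0.50, -0.44 and -0.13. Over the 19 P35;Ras cells the values were 0.60, 0.34 and 0.24 with plasmatocyte, -0.28, -0.45 and -0.23 with fat body and -0.16, 0.16 and 0.12 with SG markers, and Mcr stood at -0.56 with crystal cell markers. All are shares of the same cell totals, so a rise in 1 source lowers the others. Tep1, Tep4 and Mcr were lower where fat body markers, from a tissue that makes thioester-containing proteins too, were higher, and the part of fat body RNA in their levels was not tested. In Ras, Tep2 gave 0.16 against fat body and -0.19 against plasmatocyte markers, and in P35;Ras 0.05 and -0.15. The part of fat body RNA in the level of Tep2 was not tested either. Tep4 and Mcr correlated at 0.62 with each other in attached Ras. The limits of 5000 and 10000 CPM were set after the values had been seen.

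**Figure D5:**
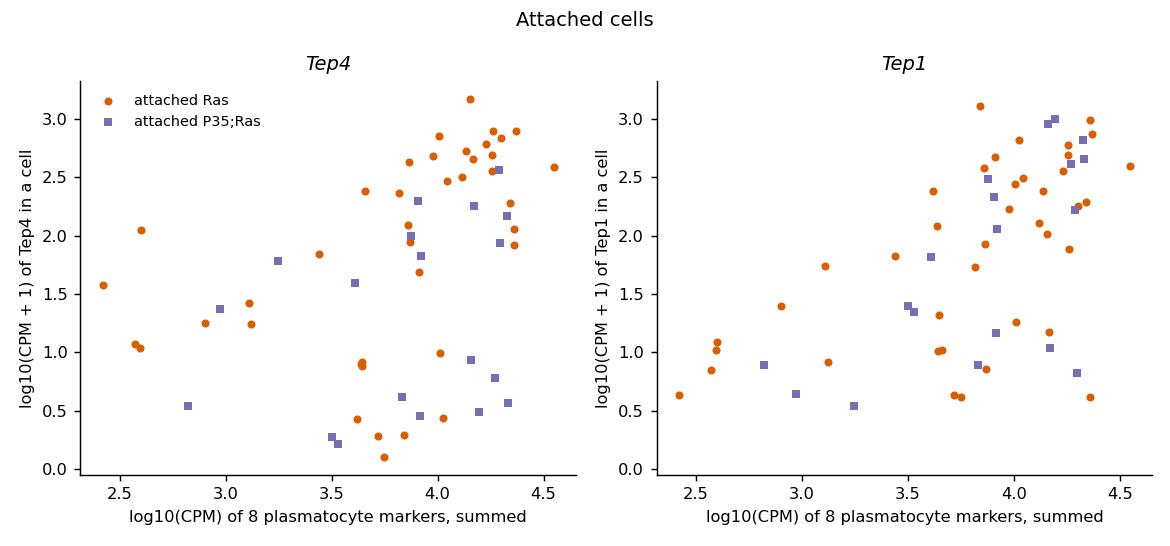
Each symbol is an attached cell, with log10(CPM) of the 8 plasmatocyte markers summed on the x axis and log10(CPM + 1) of Tep4 (left) or Tep1 (right) on the y axis, in Ras (circles) and P35;Ras (squares). Among cells with at least 5000 CPM of these markers the median of Tep4 is 314.9 CPM in Ras and 65.3 in P35;Ras, and that of Tep1 194.6 and 212.1.

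Attached cells were then compared with circulating cells of the same genotype. The sets differ in cell isolation (hand picking against sorting), in cDNA cycles (24 in the attached set), in read type and in sequencing run, and these cannot be told apart from attachment. In Ras, Tep1 was lower in attached cells (271.4 against 562.3 CPM, log2 ratio -1.05, -1.07 to -1.04), Tep2 higher (22.6 against 7.09, 1.67, 1.55 to 1.80), Tep4 higher (242.2 against 136.5, 0.83) and Mcr lower (71.0 against 95.9, -0.43). The median log2 ratio of the genes tested was -0.36, so Mcr lay close to the typical gene. Of the 3 members at 50 CPM, 1 was past 2-fold, beside 31.4% of genes, and of the 4 at 10 CPM 2, beside 38.5%. With totals that leave out SG and fat body markers Tep1 stood at -0.97, below 2-fold, and TMM factors took Tep1 to -0.69 and Tep4 to 1.19.

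In P35;Ras, Tep1 (212.8 against 455.1 CPM, log2 ratio -1.10, -1.12 to -1.08) and Tep4 (60.8 against 171.5, -1.50, -1.53 to -1.46) were lower in attached cells, whereas Tep2 (35.8 against 30.5, 0.23) and Mcr (48.9 against 74.1, -0.60) were within 2-fold. The median log2 ratio of all genes tested was -0.47, and 2 of 3 members at 50 CPM were past 2-fold, beside 47.7% of genes, and 2 of 4 at 10 CPM, beside 54.6%. Tep1 stood at -0.98 without 1 of the near-identical wells, at -0.59 without the crystal-marker-rich cells and at -0.33 with TMM factors, which shift this comparison by 0.77. Tep4 stood at -1.37, -1.31 and -0.73 in these settings. The crystal-marker limit was applied to both sets of cells and left 122 of the 124 circulating P35;Ras cells. Mcr turned to 0.17 with TMM factors, and without 1 of the near-identical wells Mcr was at -0.47 and Tep2 at 0.36. Without the atilla-rich circulating cells Tep2 was at 1.75, close to its value in Ras. Tep4 was thus higher in attached than in circulating cells in Ras and lower in P35;Ras, and this opposition was not tested, since each group counts as 1 sample. By medians over cells the Ras side of it vanished, with 112.3 CPM in attached and 112.7 in circulating Ras cells and a log2 ratio of -0.01.

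Genes of pathways around the members were read from 5 lists of genes, counted at 10 CPM or more in the higher group. Their counts stand beside 9.18% of all genes past 2-fold in circulating Ras over w1118, 19% in circulating P35;Ras over w1118 and 43% in attached P35;Ras over Ras, and with 5 to 18 genes a list they are a description only. Of the JAK/STAT list, through which cytokines of the unpaired family act on hemocytes, 7 of 10 genes could be read in circulating cells. Stat92E, the transcription factor of the pathway, was 177.1 CPM in w1118, 432.6 in Ras and 528.5 in P35;Ras (log2 ratios over w1118 1.29 and 1.58), and no other of the 7 was past 2-fold in either comparison. The receptors dome and et stood at 0.80 and 0.32 in Ras and 0.48 and 0.70 in P35;Ras, the kinase hop at 0.44 and 0.56, and the target Socs36E at 0.22 and -0.02. The list's median was 0.32 and 0.48, beside 0.10 and 0.18 over all genes tested. In attached P35;Ras over Ras 0 of 7 were higher and 3 lower past 2-fold, beside 43% of all genes, among them the ligand upd3 (0.19 against 23.2 CPM) and the phosphatase Ptp61F (-1.37).

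The Turandot genes, secreted stress peptides downstream of JAK/STAT in the fat body, were under 10 CPM in all circulating groups, 0 of 8 readable. TotA had 0, 0.055 and 0.53 CPM. In attached cells TotA reached 5834 and 6284 CPM, where fat body markers were also read.

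Among receptors of macroglobulin relatives and of phagocytosis, 7 of 10 were readable and 1 in Ras and 2 in P35;Ras were past 2-fold over w1118, beside 9.18% and 19% of all genes. The scavenger receptor Sr-CI was at 1322, 3888 and 5880 CPM (log2 ratios 1.56 and 2.15). NimC2, a relative of the phagocytosis receptor NimC1, was at 264.6, 164.9 and 1.95 CPM, so it was nearly missing from circulating P35;Ras (-7.08), whereas attached cells had 36.7 and 29.5 CPM. NimC1 stood at 0.33 and 0.52, PGRP-LC at 0.52 and 0.56, and LRP1, a fly relative of the mammalian alpha-2-macroglobulin receptor, was under 10 CPM in all circulating groups. The list's medians were 0.11 and 0.47.

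Of the septate junction partners of Mcr, 16 of 19 found were readable in circulating cells. None was past 2-fold in Ras over w1118, and in P35;Ras cora was higher (510.5 against 203.1 CPM, 1.33) and crok lower (29.1 against 71.7, -1.30). Nrx-IV (-0.95) and Tsf2 (-0.91) came next in size. The median of the list was -0.27 and -0.33, and 0.10 and 0.18 over all genes tested, beside -0.40 and -0.77 for Mcr. In attached over circulating cells it was 0.20 in Ras and 0.05 in P35;Ras, beside -0.43 and -0.70 over all genes tested. Mcr, at -0.43 and -0.60, lay near the median of all genes. TMM factors, which shift all genes of a comparison alike, took Mcr to -0.07 and 0.17. In attached P35;Ras over Ras, 3 were higher and 5 lower of 18, beside 43% of all genes past 2-fold.

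Of 11 secreted recognition proteins and proteases, which act upstream of Toll and of melanisation, 5 were readable in circulating cells. In both tumor genotypes 2 were higher past 2-fold and 1 lower, beside 9.18% and 19% of all genes. The Toll ligand spz was at 144.9, 362.9 and 485.5 CPM (1.32 and 1.74), the recognition protein PGRP-SA at 5.21, 14.9 and 33.5 (1.52 and 2.69) and the protease Sp7 at 36.2, 17.1 and 0.34 (-1.08 and -6.75). GNBP1 stood at -0.43 in Ras and -0.73 in P35;Ras. The list's medians were -0.36 and -0.31, beside 0.10 and 0.18 over all genes tested.

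Over the 375 circulating cells, centred by genotype, the genes most like each member were sought among 6159 genes by Pearson r of log2(CPM + 1). For Tep1 they were CG4793 (0.50), CG30148 (0.46) and Erasp (0.45). For Mcr they were Mvl (0.31), Pax (0.31) and ics (0.31), for Tep4 CG31729 (0.27), CG10465 (0.22) and spir (0.21), and for Tep2, read in 50 cells, cer (0.31), CG44325 (0.31) and CG34253 (0.28). By Spearman 2 of 3 were the same for Tep1 and Mcr and 1 of 3 for Tep2 and Tep4. Within single genotypes 1 or 2 of the 3 recurred for Tep1 and 0 for Mcr, so only the likeness to Tep1 was seen in each genotype, and the others are too weak to be read.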

How the data were processed

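The authors aligned reads to Dm6 with STAR 2.7.2 and counted them per gene with featureCounts 2.0.0 and the FlyBase 6.37 annotation at default settings. They deposited raw counts per gene and cell, with an annotation that gives the genotype, cluster number and totals of counts per cell. No option for strand, pairs or multiple alignments stands in the header. Wells were grouped by the deposited genotype and kept if mitochondrial reads were no more than 10% and 200 genes or more had a read (125 of 127 w1118, 126 of 127 Ras and 124 of 126 P35;Ras circulating, 40 of 40 Ras and 19 of 21 P35;Ras attached). Reads of a group were summed and divided by its total (CPM). Ratios have exact conditional binomial, levels exact Poisson and shares Clopper-Pearson intervals at 95%. A gene was called past 2-fold if at least 50 CPM (alternatively 10 CPM) in the higher group. No test was made, since each group counts as 1 sample, and no doublet caller was run. Positions agree between the count table and the Ensembl gene annotation of the same assembly. Of 17612 gene identifiers 17548 had a name.

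All 5 members are named. From the lists, counts past 2-fold and the genes of largest ratio in circulating P35;Ras over w1118 are given, up to 4 per list. Socs36E, upd3, Ptp61F, TotA, LRP1 and NimC2 in attached cells were named after their values were seen. Per member, the 3 most correlated genes with a read in at least 25% of circulating cells are given. The members and lists were chosen with earlier results of these data known. Of 20 septate junction genes 19 were found. Alternatives were means and medians over cells, other cell filters, other totals, TMM factors, removal of the top cell, ln(1 + counts per 10000), 3-fold, 5 reads for a share, and thinning to 420000 reads, given as the mean over all draws, which was added after the data were seen. Removal of atilla-rich cells, of 1 near-identical well and of crystal-marker-rich cells, and coding length, were added after the data were seen. The calls were checked on simulated counts. No sequences of the genes or proteins were used here. Software was R 4.3.3 (edgeR 4.0.16, for TMM factors alone) and Python 3.11.15, with scipy 1.17.1 for intervals, pandas 2.3.3, numpy 2.4.6 and, for plots, matplotlib 3.10.9.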

Additional observations from a re-analysis of the deposited data

Results flagged for a closer look

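Tep4 went in opposite directions between attached and circulating cells of the 2 tumor genotypes, with a log2 ratio of 0.83 in Ras and -1.50 in P35;Ras. By medians over cells the Ras value was -0.01, so the opposition was lost. The difference was not tested. SG, fat body and crystal cell markers also differed between the attached genotypes, and their part in this was not tested.

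Reads of the members were found in attached wells that enter no comparison. Wells with a genotype label ending in _C, which the sources used here do not explain, held 21002 reads of the 5 genes in 7 kept w1118_C wells, 308 in 2 kept Ras_C wells and 25327 in 4 kept p35Ras_C wells. The attached well without a genotype held 46764 reads.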

How the results depend on the processing

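Of 24 member ratios, the 9 at 2-fold or more, here with no limit on level, kept their direction in 86 of 86 alternative values. The other ratios changed sign in 12 of 145. Direction is a weak check, since several settings hardly change a sum, and sizes moved more. Among the 9, Tep2 in circulating P35;Ras over Ras went from 2.11 to 0.47 under the stricter filter. Tep1 in attached over circulating P35;Ras went from -1.10 to -0.33 with TMM factors. Counts of members past 2-fold at 50 CPM moved as follows. At 3-fold the counts of circulating Ras and P35;Ras over w1118 and of attached over circulating in Ras went from 1 to 0, and that of attached over circulating in P35;Ras from 2 to 0. At 10 CPM, 1 became 2 in circulating P35;Ras over w1118 and in attached over circulating in Ras, and 0 became 1 in circulating P35;Ras over Ras. For circulating P35;Ras over w1118 the count was 0 with means over cells, 2 with medians, 0 with TMM factors and 0 without atilla-rich cells. For circulating P35;Ras over Ras it was 1 with the stricter filter. For attached over circulating in Ras it was 0 with totals without SG and fat body markers. For attached over circulating in P35;Ras it was 1 with means, 1 with those totals, 0 with TMM factors, 1 without the near-identical well and 1 without crystal-marker-rich cells. The cause of these moves was not tested. TMM factors shifted the comparisons by -0.11, -0.21, -0.10, 0.31, 0.36 and 0.77 (log2), in the order of the report. The stricter filter left 6, 12 and 17 circulating and 0 attached cells, so it gave no attached value, and the ln scale gives directions and no counts. No paired analysis was possible because the deposited annotation gives no larva, gland or replicate number for a cell. At this depth Tep3 was read in 1 circulating cell.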

Other observations

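The attached well without a genotype had 1448 CPM of Tep1, 615 of Tep2, 265 of Tep4 and 72.1 of Mcr, and its Tep2 was above that of each labelled attached cell, the highest of which had 235 CPM. In the 7 kept w1118_C wells Tep1 ranged from 1.63 to 478 CPM, Tep4 from 1.37 to 265 and Mcr from 0.49 to 118. In the 4 kept p35Ras_C wells Tep1 ranged from 7.92 to 501 CPM, and the 2 kept Ras_C wells had 5.98 and 91.8 CPM of Tep1. Tep3 had 0 reads in all of these wells.

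Tep5Psi, an annotated pseudogene 2464 bases beyond Tep4, had 230 reads in 6 of 125 circulating w1118 cells, 5 reads in 1 of 126 Ras cells and 93 reads in 2 of 124 P35;Ras cells. Each of these cells had Tep4 reads as well, as did 90.4%, 88.9% and 85.5% of all cells of the genotypes. In attached cells it had 1 read.

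In circulating P35;Ras each of the 18 cells with a Tep2 read also had Tep1 reads, with a median of 604 CPM of Tep1 against 230 in the other cells of that genotype. In w1118 and Ras the Tep2 cells had medians of 71.9 and 76.0 CPM of Tep1, against 93.4 and 282 in the other cells, and 9 of 17 and 10 of 15 had a Tep1 read. Among all circulating cells a Tep1 read was found in 68.0% of w1118, 84.1% of Ras and 86.3% of P35;Ras. These are values of cells from 1 sample each, chosen after they were seen, and were not tested.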
